A study of Mus musculus with 32 samples.

Results

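Mitochondrial ribosomal protein genes were followed through the first wave of mouse spermatogenesis and in adult pachytene/diplotene spermatocytes. Members were the protein-coding genes of GENCODE mouse release M21 whose symbols begin with Mrpl or Mrps and a digit, and 78 genes met this rule. Of these, 77 had a row in the juvenile gene table of 20368 genes. Mrpl33 was the remaining gene, and it is described separately, by its transcript and by a gene row under an older identifier. The 77 measured genes comprised 50 of the large subunit, 26 of the small subunit and Mrps36, which bears the name but is a subunit of the 2-oxoglutarate dehydrogenase complex.

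The mitochondrial ribosome translates the few messenger RNAs that the mitochondrial genome encodes, all of them for subunits of the respiratory chain and ATP synthase. Its ribosomal RNAs are made in the organelle, whereas every one of its proteins is encoded in the nucleus, made in the cytosol and imported. Some of these proteins have counterparts in the bacterial ribosome, and others were added only in mitochondria. Spermatocytes are cells in which mitochondria change shape and respiratory activity as prophase advances.

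RNA-seq measured polyadenylated RNA of germ cells from the testes of male C57BL/6J mice aged 8 days post partum (dpp; 3 mice) or 10, 12, 14, 16 or 18 dpp (5 mice each), with 1 library per mouse. The study samples these ages because the most advanced germ cells of the first wave move from spermatogonia through meiotic prophase over them. A second table held 4 samples of pachytene/diplotene spermatocytes, each enriched by sedimentation from 6 males of the same strain at 9 weeks and kept here for levels only, since the 2 tables were made separately. All animals were untreated, and levels are given in TPM, a share of all transcripts that is scaled to transcript length and keeps no read counts, so the sequencing depth behind a value is unknown.

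The study scored its preparations as highly enriched by cytology. By marker RNA the preparations were still mixtures, and the mixture changed with age. The summed TPM of 6 pachytene spermatocyte markers spanned 35.3 to 43.5 at 8 dpp and 2642 to 4905 at 18 dpp. Over the same ages the sum of 8 Sertoli cell markers went from 6941 to 7825 down to 3271 to 4255. That of 6 spermatogonial markers went from 520 to 611 down to 212 to 294. Clu made up most of the Sertoli sum, averaging 5377 TPM at 8 dpp and 2899 at 18 dpp. Among the other Sertoli markers Rhox5 rose, from 36.6 to 68.4, and the rest fell. Other somatic markers did not all fall. The macrophage marker sum went from 26.4 to 33.3 up to 39.7 to 78.6, whereas the peritubular sum fell. Leydig, endothelial and red blood cell marker sums overlapped between 8 and 18 dpp. In adult samples the pachytene marker sum was 10165 to 10411, Sertoli markers remained at 296 to 435 with 6 of 8 averaging at least 3 TPM, and 6 spermatid markers reached 872 to 1189, against at most 17.0 in any juvenile mouse. On the first principal component of all genes (67.4% of the variance), 18 dpp mice 1 to 3 scored 143 to 148, whereas their agemates 4 and 5 scored 96.2 and 88.7, closer to the 16 dpp mice (28.7 to 72.0). The study left out some 8 dpp mice that matched their agemates poorly, so the 8 dpp group is a selected one. The labels name no sequencing pool or batch.

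Transcripts for mitochondrial ribosomal proteins were present at moderate and similar levels at every age. Averaged over the 28 mice, member means ran from 13.1 to 164 TPM with a median of 59.5, and 76 of the 77 genes had at least 3 TPM in every mouse. The highest means belonged to Mrpl52 (164 TPM), Mrpl48 (139) and Mrps5 (127), and the lowest to Mrpl57 (13.1), Mrpl35 (14.8) and Mrpl23 (17.1). Mrpl23 was the gene that fell under 3 TPM in a mouse. Genes for proteins of one particle differed 12.5-fold from highest to lowest mean messenger level per length.

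The summed TPM of the members rose modestly and then levelled off. No sum was made under another scaling. At 18 against 14 dpp limma called 21 members higher and 30 lower on TPM, against 38 and 6 when scaled by median-of-ratios factors. Over all 20368 genes these counts were 5359 and 8578 on TPM, against 6859 and 5762. The sum was 4569 ± 107 TPM at 8 dpp (SD, n = 3), 4977 ± 228 at 12 dpp (n = 5) and 5065 ± 134 at 18 dpp (n = 5), which is 0.457% and 0.507% of all TPM at the first and last age. Among members, large-subunit genes carried this increase, with a sum of 2981 ± 85.9 TPM at 8 dpp and 3460 ± 74.5 at 18 dpp. No 18 dpp mouse fell within the 8 dpp range. The subunit sums and their ratio leave out 5 ribosomal proteins with other names, Dap3, Ptcd3, Chchd1, Aurkaip1 and Gadd45gip1. All 5 were called higher at 18 against 8 dpp and are described below. They were not sorted by subunit here. The contrast of subunits therefore holds for genes with Mrpl or Mrps names, not for the whole particle. Small-subunit genes summed to 1550 ± 36.1 TPM at 8 dpp, 1717 ± 115 at 12 dpp and 1573 ± 103 at 18 dpp, so their first and last ages overlapped. Dividing the large by the small sum gave 1.92 ± 0.05 in mice of 8 dpp, 1.85 ± 0.03 in those of 14 dpp and 2.21 ± 0.14 in those of 18 dpp. In adult cells it was 3.22 ± 0.12 (n = 4), where the large sum was 3496 ± 98.1 TPM and the small sum 1088 ± 54.3. A few genes made up much of the large-subunit difference of 479 TPM between 8 and 18 dpp: Mrpl51, Mrpl24 and Mrpl54 together added 254 TPM. Fewer cells of a type and less RNA per cell cannot be told apart in such bulk samples, here and in every comparison that follows.

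**Figure D1:**
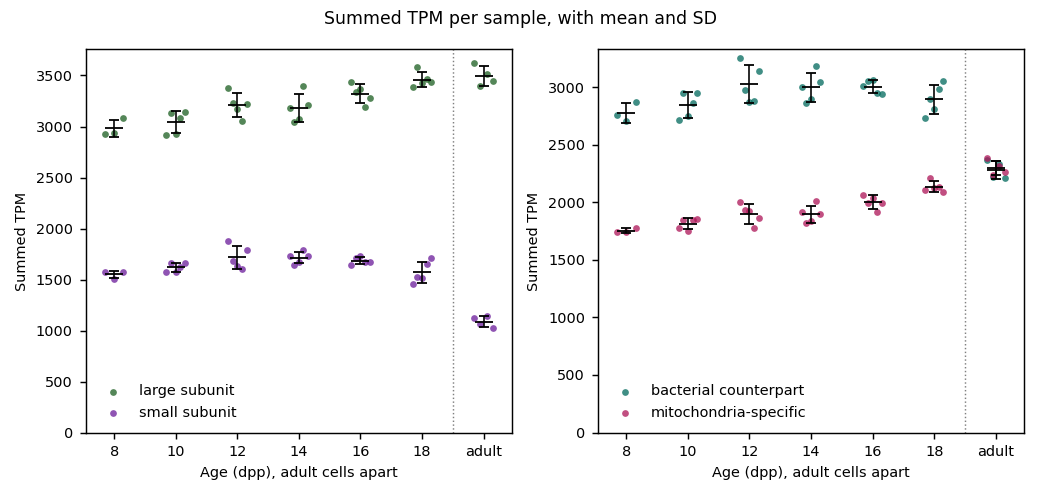
Summed TPM (vertical axes) of large- and small-subunit genes (left) and of genes with a bacterial counterpart and mitochondria-specific genes (right) in each sample, by age in dpp, with adult cells right of the dotted line. Points are samples, bars are mean and SD; the large-subunit sum was 2981 TPM at 8 dpp and 3460 at 18 dpp, and the small-subunit sum was 1088 in adult cells.

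Between 8 and 18 dpp, 26 of the 77 members rose and 14 fell by limma at an adjusted p under 0.05, and 37 did not pass. Of all 20368 genes, 31.8% were called higher and 36.3% lower, so the share of members that rose (33.8%) was near the background and the share that fell (18.2%) was below it. The median change over members was 0.04 on the log2(TPM + 1) scale and that over all genes was -0.09. All mice of 1 age lay above all mice of the other for 27 members in the direction of 18 dpp and for 3 in the direction of 8 dpp, where all genes gave 29% and 32%. The split depended on the scaling. With median-of-ratios factors 40 members were higher and 5 lower, with medians of 0.21 over members and 0.05 over all genes. After quantile normalization 22 were higher and 20 lower, with medians of -0.04 and -0.26. Of all 20368 genes, 7589 were higher and 5991 lower with the former, and 5532 and 9148 with the latter. Without 18 dpp mice 4 and 5, 26 members were higher and 20 lower. The count of falls was 9 without 8 dpp mouse 3 and 8 without 18 dpp mouse 1 or mouse 3.

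The calls were counted by role. Among 50 large-subunit genes 20 rose and 8 fell, with a median of 0.12, and among 26 small-subunit genes 6 rose and 6 fell, with a median of 0.01. With median-of-ratios factors these counts were 29 and 3, and 11 and 2, and after quantile normalization 18 and 13, and 4 and 6. Of 31 mitochondria-specific proteins 14 genes rose and 2 fell (median 0.12), whereas of 45 with a bacterial counterpart 12 rose and 12 fell (median 0.03). The first pair became 19 and 1 with median-of-ratios factors and 12 and 5 after quantile normalization, and the second 21 and 4, and 10 and 14. No test of a difference between these groups was made. Mrps36, the gene outside the ribosome, did not pass, at 37.3 ± 2.55 TPM at 8 dpp and 32.4 ± 5.08 at 18 dpp (limma adjusted p = 0.098).

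**Figure D2:**
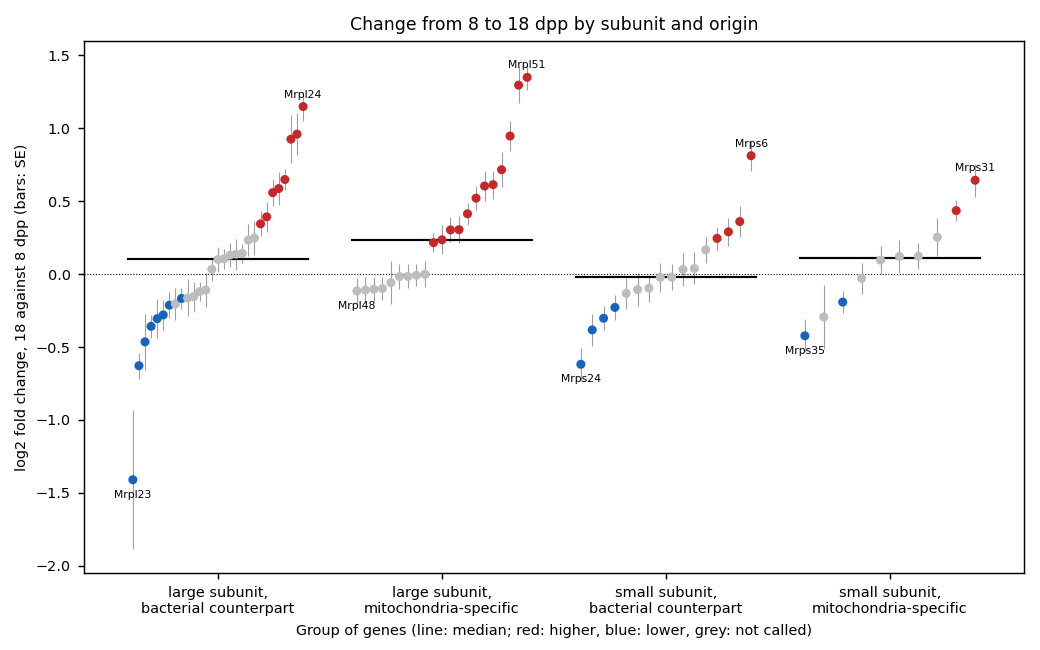
The log2 fold change of each member from 8 to 18 dpp (vertical axis, on log2(TPM + 1), bars are SE), with 1 point per gene in 4 groups by subunit and by presence of a bacterial counterpart; lines are group medians. Red genes were called higher and blue genes lower by limma; mitochondria-specific proteins had 14 genes called higher and 2 lower, those with a bacterial counterpart 12 and 12.

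The 6 genes with the largest rises all encode large-subunit proteins. Mrpl51, for a protein without a bacterial counterpart, had 75.1, 64.1 and 72.2 TPM in the 8 dpp mice and 195, 213, 191, 161 and 151 TPM in the 18 dpp mice. Every mouse at 18 dpp was at least as high as 151 TPM and none at 8 dpp exceeded 75.1. The change was 1.35 ± 0.09 (log2, SE; limma adjusted p = 1.7e-13). Mrpl51 rose in several steps, being called higher at 12 against 10 dpp (0.37, limma adjusted p = 0.00053), at 16 against 14 dpp (0.29, adjusted p = 0.0044) and at 18 against 16 dpp (0.39, adjusted p = 0.0001).

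Mrpl39, also mitochondria-specific and related in sequence to threonyl-tRNA synthetases, stayed level and then climbed late. Its level was 31.2, 29.9 and 29.0 TPM at 8 dpp, 24.8 to 41.0 TPM in mice aged 10 to 14 dpp, and 80.3, 91.3, 82.8, 66.1 and 59.8 TPM at 18 dpp. Means at 14, 16 and 18 dpp were 33.8 ± 4.19, 46.8 ± 6.64 and 76.0 ± 12.9 TPM. The change from 8 to 18 dpp was 1.30 ± 0.12 (limma adjusted p = 5e-10).

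Mrpl24 encodes the counterpart of the bacterial protein that starts assembly of the large subunit. It had 71.9, 68.9 and 77.01 TPM at 8 dpp and 167, 180, 179, 139 and 150 TPM at 18 dpp, a change of 1.15 ± 0.10 (limma adjusted p = 5.3e-11). The step from 14 to 16 dpp, from 86.4 ± 6.17 to 126 ± 17.3 TPM, was its largest (0.53, limma adjusted p = 2.9e-05), and no mouse overlapped between those ages. Its locus overlaps Rrnad1 on the opposite strand. Rrnad1 averaged 13.3 TPM at 8 dpp and 18.1 at 18 dpp, and its part in the Mrpl24 values was not tested.

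Mrpl1 belongs to the stalk near the exit site for spent tRNA. Its values were 16.5, 14.0 and 14.6 TPM at 8 dpp and 34.0, 37.1, 32.4, 24.0 and 25.5 at 18 dpp (0.96 ± 0.14, limma adjusted p = 1.1e-06). Mice 4 and 5 at 18 dpp were the lowest of their age, as they were for Mrpl51, Mrpl39 and Mrpl24. Mrpl53, a mitochondria-specific protein, moved from 44.9, 43.0 and 39.3 TPM to 74.6, 76.2, 92.1, 89.4 and 81.9 (0.95 ± 0.10, limma adjusted p = 5.6e-09), and there mice 4 and 5 were not the lowest. Mrpl47, the mitochondrial form of bacterial L29 at the tunnel exit, moved from 23.2, 21.0 and 22.4 TPM to 49.0, 42.2, 47.9, 38.7 and 38.6 (0.93 ± 0.16, limma adjusted p = 1.6e-05). Its locus overlaps Actl6a and Ndufb5 on the opposite strand. Ndufb5, a complex I subunit, averaged 117 TPM at 8 dpp and 207 at 18 dpp. Overlap was judged from whole loci, not from exons, and the strand setting of the counting is not given in the sources used here. Whether reads of such pairs were mixed was not tested.

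Smaller rises covered both subunits. Mrps6 and Mrpl36, whose levels changed mainly before 14 dpp, were higher by 0.81 and 0.65. Mrpl57, Mrps31, Mrpl41, Mrpl54, Mrpl35, Mrpl20 and Mrpl38 were higher by 0.72, 0.64, 0.61, 0.60, 0.59, 0.56 and 0.52, and Mrps22, for a mitochondria-specific small-subunit protein, by 0.44. The remaining 10 called genes rose by 0.22 to 0.41.

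Falls were fewer. Mrpl2 encodes the counterpart of bacterial L2, which sits beside the peptidyl transferase center. It had 145, 130 and 145 TPM at 8 dpp and 87.6, 85.8, 86.8, 86.9 and 105 TPM at 18 dpp (-0.63 ± 0.09, limma adjusted p = 6.2e-07). Every 18 dpp mouse was below every 8 dpp mouse, and mouse 5 at 18 dpp was the highest of its age. Mrps24, the mitochondrial form of bacterial S3 at the mRNA entry, fell from 57.4, 70.2 and 59.4 TPM to 35.3, 34.1, 39.96, 40.9 and 52.4 (-0.62 ± 0.11, limma adjusted p = 2e-05). Mrpl28 fell from 100.5, 93.1 and 97.2 TPM to 68.4, 72.7, 69.8, 79.0 and 88.5 (-0.36 ± 0.08, limma adjusted p = 0.00028). These were the 3 called falls in which no mouse overlapped. Mrps24 shares its strand and locus with Urgcp, which averaged 21.6 TPM at 8 dpp and 20.9 at 18 dpp.

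The largest fitted fall, that of Mrpl23, was uncertain. Its values at 18 dpp were 20.7, 1.00, 9.17, 5.05 and 8.78 TPM, overlapping the 14.2 to 30.6 TPM at 8 dpp (-1.41 ± 0.48, limma adjusted p = 0.011). An annotated processed pseudogene, Mrpl23-ps1, was listed at 53.3 ± 14.5 TPM at 8 dpp and 30.4 ± 10.6 at 18 dpp, more than the gene itself. Relative to its mean the sum of both varied less between mice than either, with an SD of 17.8% of the mean at 18 dpp against 82.3% for the gene and 35.0% for the pseudogene. The sum was 73.7 ± 10.0 TPM at 8 dpp and 39.3 ± 7.02 at 18 dpp, with ranges of 64.0 to 84.0 and 31.8 to 49.0. How reads were divided between the copies was not tested. Mrpl48 and Mrps36 also have named pseudogenes, none of which exceeded 0.65 TPM in any mouse.

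**Figure D3:**
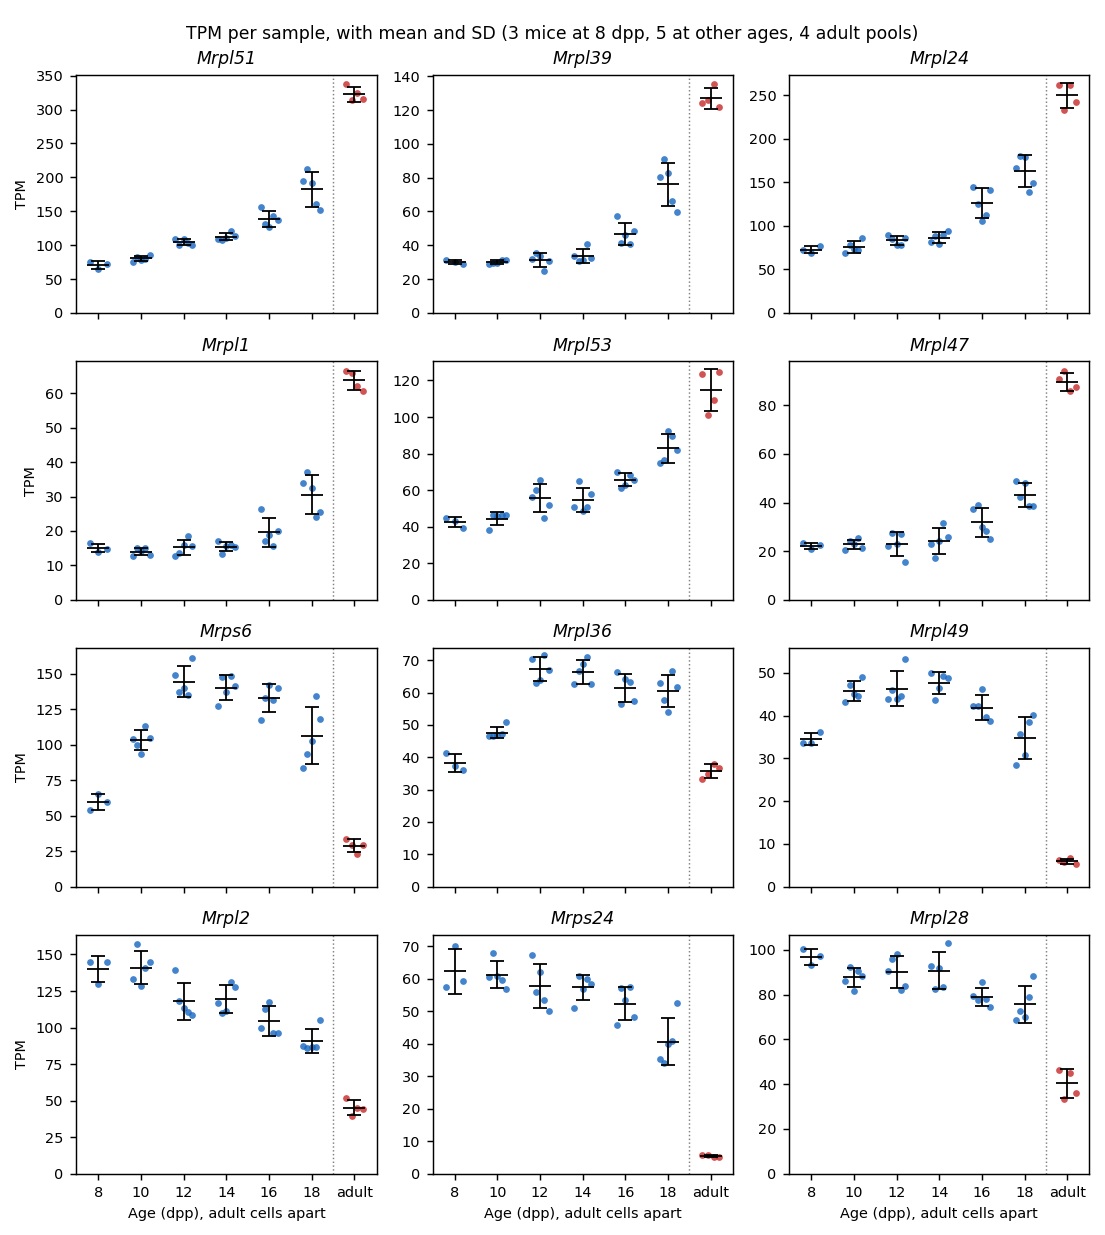
TPM (vertical axes from 0) in each sample for 12 genes by age in dpp, with adult cells in red right of the dotted line; points are samples and bars are mean and SD. The upper 6 genes had their highest juvenile values at 18 dpp and higher ones in adult cells, Mrps6, Mrpl36 and Mrpl49 peaked at 12 to 14 dpp, and Mrpl2, Mrps24 and Mrpl28 were lowest at 18 dpp and in adult cells.

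Promoter sequence is shown for the 3 genes with the largest rises and the 2 with the largest falls in which no mouse overlapped, as these move in opposite directions. Each line gives the 120 bases before the annotated start, 5′ to 3′ on the gene's strand, from RefSeq on GRCm38.p6, with capitals marking every match to any of 6 motifs on either strand. The motifs searched were CCGGAAG (bound by ETS factors such as GABPA), TGCGCA (the core of the NRF1 site), AAGATGGC (YY1), CCAAT (NF-Y), TATAAA (the TATA box) and TGACGTCA (CREB). Matches could overlap and were counted separately. The windows are chr6:125192080-125192199 on the plus strand for Mrpl51, chr16:84735245-84735364 on the minus strand for Mrpl39, chr3:87919424-87919543 on the plus strand for Mrpl24, chr17:46646101-46646220 on the plus strand for Mrpl2 (the first of 3 annotated starts) and chr11:5707702-5707821 on the minus strand for Mrps24.
Mrpl51: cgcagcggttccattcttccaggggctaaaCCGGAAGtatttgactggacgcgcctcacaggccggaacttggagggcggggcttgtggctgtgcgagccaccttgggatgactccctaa
Mrpl39: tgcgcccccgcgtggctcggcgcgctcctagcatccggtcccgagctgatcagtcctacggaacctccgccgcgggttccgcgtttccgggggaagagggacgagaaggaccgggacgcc
Mrpl24: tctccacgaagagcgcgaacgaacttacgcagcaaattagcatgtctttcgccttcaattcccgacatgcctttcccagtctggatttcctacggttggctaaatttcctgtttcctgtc
Mrpl2: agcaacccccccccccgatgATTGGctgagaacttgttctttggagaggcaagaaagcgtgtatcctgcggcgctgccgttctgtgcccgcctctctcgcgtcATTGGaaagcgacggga
Mrps24: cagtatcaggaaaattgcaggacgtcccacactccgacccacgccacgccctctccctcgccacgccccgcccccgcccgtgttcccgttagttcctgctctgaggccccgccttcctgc
Mrpl51 held 1 ETS letter run, Mrpl2 held CCAAT on the opposite strand at 2 places, and no run was in the windows shown of Mrpl39, Mrpl24 or Mrps24. In the longer promoters of 300 bases counted below, Mrps24 had TGCGCA, AAGATGGC and TATAAA, Mrpl39 had CCAAT and Mrpl24 had none.

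Across the family, 3 motifs were common. A promoter of 300 bases (250 before and 50 after the start) was given for 69 of the 78 genes. CCGGAAG was in 26 of these (37.7%), against 9.93% of all 27025 genes with a promoter and 19.4% of the 10682 protein-coding genes among those measured here. TGCGCA was in 21 (30.4%, against 8.79% and 15.7%) and AAGATGGC in 12 (17.4%, against 3.19% and 4.94%). At least 1 of these 3 was in 44 member promoters (63.8%), against 34.7% of the protein-coding genes. CCAAT (39.1%, against 41.1% and 43.1%), TATAAA (7.25%, against 15.7% and 8.72%) and TGACGTCA (2.9%, against 2.03% and 3.48%) stood nearer to the other promoters. Split by the change from 8 to 18 dpp, CCGGAAG was in 6 of 23 promoters of genes that rose, 3 of 12 of genes that fell and 16 of 33 of genes not called. In the same order TGCGCA was in 7, 5 and 9 of these promoters, and AAGATGGC in 4, 1 and 7. Of the 78 genes, 18 (23.1%) have the start of another gene within 1000 bases on the opposite strand, pointing away, against 6.78% of all annotated protein-coding genes.

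Single steps of age placed these changes in time. From 8 to 10 dpp 3 members rose and none fell (background 0.977% and 0.226%), with 14 at an unadjusted p under 0.05. Mrps6, the mitochondrial form of bacterial S6, had 54.2, 65.0 and 59.4 TPM at 8 dpp, and 104, 100.1, 93.7, 113 and 105 at 10 dpp (0.78 ± 0.10, limma adjusted p = 0.00014). It continued to 149, 137, 140, 135 and 161 TPM at 12 dpp (0.48 ± 0.09 over 10 dpp, adjusted p = 0.00027), ranged from 118 to 148 TPM over the mice of 14 and 16 dpp, and stood at 83.6, 93.7, 103, 134 and 118 TPM at 18 dpp. This was the largest change of any member from 8 to 12 dpp (1.27 ± 0.10, limma adjusted p = 1.7e-09). Mrps6 shares its strand and locus with Slc5a3, which averaged 10.9 TPM at 8 dpp and 10.7 at 12 dpp.

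Mrpl49 and Mrpl36 were the other members that rose from 8 to 10 dpp. Mrpl49 went from 34.5 ± 1.44 to 45.8 ± 2.31 TPM (0.40 ± 0.09, limma adjusted p = 0.018), and it was back at 34.8 ± 4.99 at 18 dpp. Mrpl36, the mitochondrial form of bacterial L36, went from 38.2 ± 2.76 to 47.6 ± 1.80 and then to 67.3 ± 3.82 TPM at 12 dpp, with no overlap of mice in either step (0.31 and 0.49, limma adjusted p = 0.02 and 1.5e-06). It remained at 60.6 ± 4.92 TPM at 18 dpp. Ndufs6, overlapping Mrpl36 on the opposite strand, averaged 115 TPM at 8 dpp, 111 at 12 dpp and 149 at 18 dpp. Without 8 dpp mouse 2 or 10 dpp mouse 5, only 1 member was called at this first step.

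From 10 to 12 dpp 9 members rose and 1 fell (background 12% and 9.39%). Mrpl36 and Mrps6 led the rises and Mrpl2 was the fall (-0.26 ± 0.08, limma adjusted p = 0.017), which was not called without 10 dpp mouse 2 or 12 dpp mouse 5. From 12 to 14 dpp no member was called by limma, and none had an unadjusted p under 0.05; the background was 0.157% higher and 0.0147% lower. Over the earlier interval, 12 against 8 dpp, 15 rose and 1 fell (background 13% and 10%). The single fall was Mrpl2 (-0.25 ± 0.09, limma adjusted p = 0.042), and it was lost without 8 dpp mouse 1 or 3 or any of 12 dpp mice 2 to 5, whereas without 12 dpp mouse 1 there were 2 falls.

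From 14 to 16 dpp 7 members rose and 2 fell (background 12.7% and 11.3%). All 7 rises were in the large subunit, led by Mrpl24 and Mrpl39 (0.53 and 0.46, limma adjusted p = 2.9e-05 and 0.0024). The falls were Mrps17, from 122 ± 5.92 to 105 ± 2.59 TPM (-0.21 ± 0.07, limma adjusted p = 0.023), and Mrpl28 (-0.19 ± 0.07, adjusted p = 0.042). Rises numbered 4 without 14 dpp mouse 2 or 3, and 3 without 16 dpp mouse 1. Falls numbered 0 without 14 dpp mouse 7 or 16 dpp mouse 1 or 5, 1 without 14 dpp mouse 1, 3 or 6 or 16 dpp mouse 2, and 4 without 16 dpp mouse 3. With median-of-ratios factors there were 11 rises and 0 falls (2860 and 1454 of all 20368 genes). From 16 to 18 dpp 18 rose and 17 fell (background 23.4% and 30.6%). Median-of-ratios factors gave 26 and 2 (6193 and 3630 of all genes), and quantile normalization 16 and 27 (4531 and 7462). Mrpl39 and Mrpl1 led the rises (0.68 and 0.62, limma adjusted p = 1.1e-05 and 0.00015). The falls were led by Mrpl23 (-0.98 ± 0.41, limma adjusted p = 0.048), with the uncertainty given above, and Mrpl14, from 35.7 ± 2.59 to 24.5 ± 6.64 TPM (-0.56 ± 0.12, adjusted p = 0.00031). Without 18 dpp mouse 2 the falls numbered 11, and without mice 4 and 5 they numbered 28.

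Over the later interval, 18 against 14 dpp, 21 rose and 30 fell (background 26.3% and 42.1%). Median-of-ratios factors turned this to 38 and 6 (6859 and 5762 of all 20368 genes). Quantile normalization gave 19 and 33 (4981 and 10057 of all genes). Of 26 small-subunit genes 3 rose and 13 fell, which median-of-ratios factors turned to 11 and 2, and of 50 large-subunit genes 18 rose and 16 fell, which became 27 and 3. Mrpl39 and Mrpl1 rose most (1.14 and 0.92, limma adjusted p = 6.3e-10 and 2.6e-07), and Mrpl23 and Mrpl14 fell most (-1.57 and -0.71, adjusted p = 0.0016 and 8e-06). Mrpl14 encodes the counterpart of bacterial L14 at the bridge to the small subunit, and all its 18 dpp mice were below all its 14 dpp mice, though mouse 4 at 36.1 TPM only just. Tmem63b, overlapping Mrpl14 on the opposite strand, averaged 23.4 TPM at 14 dpp and 12.1 at 18 dpp, and its part in the Mrpl14 values was not tested.

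The 2 intervals sorted the members by their course. Called higher in the earlier and lower in the later interval were 8 genes, Mrps6, Mrps17, Mrps27, Mrps36, Mrpl3, Mrpl10, Mrpl14 and Mrpl49. Higher in both were 3, Mrpl51, Mrpl53 and Mrpl57, all mitochondria-specific. Mrpl2 was lower in both. A further 18 were called higher and 21 lower in the later interval without a call in the earlier, 4 were called higher in the earlier without a call in the later, and 22 passed in neither. These classes depended on the scaling: with median-of-ratios factors 43 of the 77 members were in another class, and after quantile normalization 7 were. Higher then lower were 3 members with the former and 9 with the latter. Highest means fell at 18 dpp for 25 members and at 12 dpp for 15, and lowest means at 18 dpp for 29 and at 8 dpp for 23. Neither the classes nor these ages were counted over all genes. Whether any of them is particular to the members is therefore not known.

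**Figure D4:**
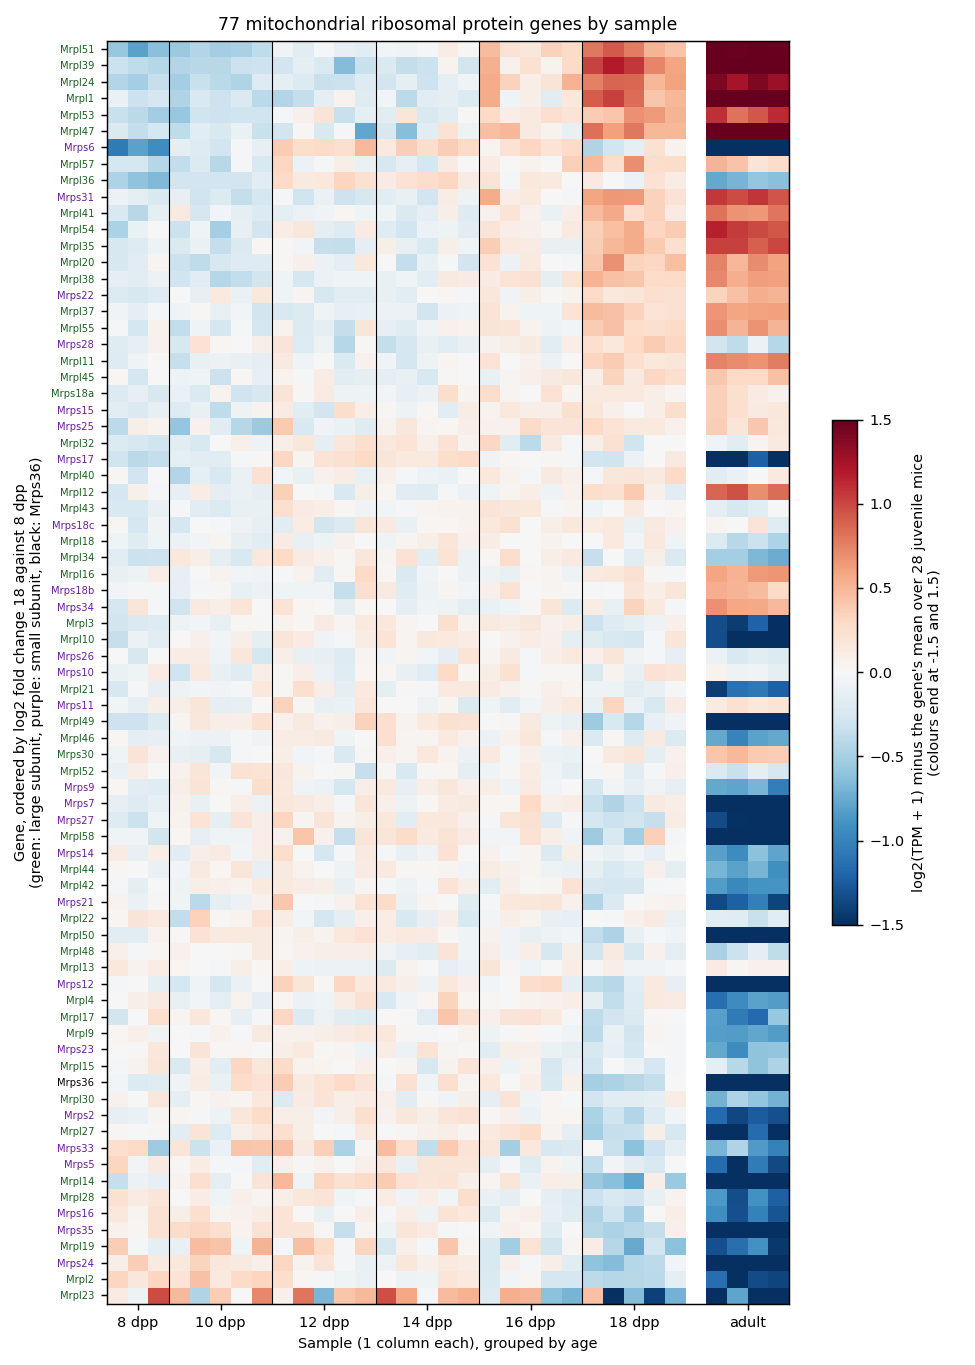
Each of the 77 measured genes (rows, ordered by log2 fold change from 8 to 18 dpp) in each of 28 juvenile mice and 4 adult samples (columns), coloured by log2(TPM + 1) minus that gene's mean over the juvenile mice. Most rows stayed pale through 14 dpp, the top rows from Mrpl51 to Mrpl47 were red at 18 dpp and in adult cells, and Mrps6 was blue at 8 dpp and in adult cells.

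Any difference among the 6 ages was called for 52 of 77 members by limma's F test (67.5%, against a background of 77.6%). The smallest F statistics were those of Mrps11 (68.8 TPM over all mice, limma adjusted p = 0.91), Mrps14 (79.0 TPM, adjusted p = 0.9) and Mrps10 (58.6 TPM, adjusted p = 0.79), all with bacterial counterparts in the small subunit. Mrps11 is transcribed against Mrpl46, whose locus it overlaps. The 3 paralogs of bacterial S18, of which Mrps18a sits in the large subunit, gave 1 call between 8 and 18 dpp. Although all 3 are related to S18, Mrps18a and Mrps18b were counted as mitochondria-specific in the split by origin. Only Mrps18c was counted there as having a bacterial counterpart. Mrps18a rose from 55.7 ± 2.37 to 69.0 ± 2.27 TPM (0.30 ± 0.09, limma adjusted p = 0.0027), while Mrps18b at 60.4 ± 0.56 and 66.0 ± 4.34 TPM and Mrps18c at 69.7 ± 6.66 and 78.2 ± 5.29 TPM did not pass (adjusted p = 0.22 and 0.11). Rsph9, a radial spoke gene overlapping Mrps18a on the opposite strand, averaged 4.84 TPM at 8 dpp and 70.0 at 18 dpp.

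Mrpl33, for a large-subunit protein, was read through its coding transcript Mrpl33-201, which the table carries under an older gene identifier. It measured 85.5 ± 6.42 TPM at 8 dpp, 78.0 ± 10.4 at 14 dpp and 97.5 ± 6.79 at 18 dpp. The test was made on the gene row of that older identifier, not on the transcript alone. This row was called higher at 18 against 14 dpp (0.30 ± 0.08, limma adjusted p = 0.0013). It was not called at 18 against 8 dpp (0.16 ± 0.09, limma adjusted p = 0.10).

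Other genes of mitochondrial translation and of the 2 systems that it borders moved in different proportions. Of 87 measured cytosolic ribosomal protein genes, 5 rose and 72 fell between 8 and 18 dpp, with a median of -0.51 (7 and 62 with median-of-ratios factors, 3 and 59 after quantile normalization), and their summed level went from 78362 ± 788 to 53393 ± 4432 TPM. The largest falls were those of the X-linked Rps4x (-1.25) and Rpl39 (-1.12), and the largest rises those of Rpl10l (2.40) and Rpl39l (2.03), retrogene-derived copies expressed in testis. Among 82 nuclear genes of oxidative phosphorylation 38 rose and 18 fell (median 0.15), against 53 and 14 and 33 and 21 with those scalings. The testis forms Cox8c and Cox7b2 rose by 6.62 and 4.01 and their widely expressed relatives Cox8a and Cox7b fell by 1.02 and 1.10. Mitochondrially encoded mRNAs, the templates of the mitochondrial ribosome, had 0 rises and 3 falls of 12 by limma, led by mt-Nd1 (-0.37) and mt-Atp8 (-0.33), but median-of-ratios factors gave 2 rises and 0 falls. From 16 to 18 dpp all 12 fell, against 5 with those factors and 1 after quantile normalization.

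Factors that build or serve the mitochondrial ribosome gave both directions. All 5 ribosomal proteins that carry other names rose, from Aurkaip1 (0.51) and Chchd1 (0.55) to the least at 0.35. These 5 were not members and are absent from the subunit sums, ratio and counts above. In adult cells 2 of them lay above all 18 dpp mice and 0 below. Of 26 assembly and rRNA modification genes 12 rose and 4 fell (10 and 8 after quantile normalization), with Trmt61b (2.11), a tRNA and rRNA methyltransferase, and Tfb1m (1.14), the small-subunit rRNA dimethyltransferase, at the top and Rbfa (-0.70) and Gtpbp10 (-0.52) at the bottom. Of 13 translation factors 7 rose and 3 fell, among them the release factor Mtrf1 (0.71) and the initiation factor Mtif3 (0.69) against the elongation factor Guf1 (-0.68) and the deformylase Pdf (-0.64). Of 17 mitochondrial aminoacyl-tRNA synthetases 7 rose, Rars2 (1.14) and Tars2 (0.93) most, and 7 fell, Sars2 (-0.997) and Cars2 (-0.61) most, where median-of-ratios factors gave 7 and 2. Sars2 starts next to Mrps12, pointing away from it. Of 6 genes of mitochondrial transcription and mRNA handling Polrmt (0.27) and Slirp (0.24) rose and Tfam (-0.71) fell.

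**Figure D5:**
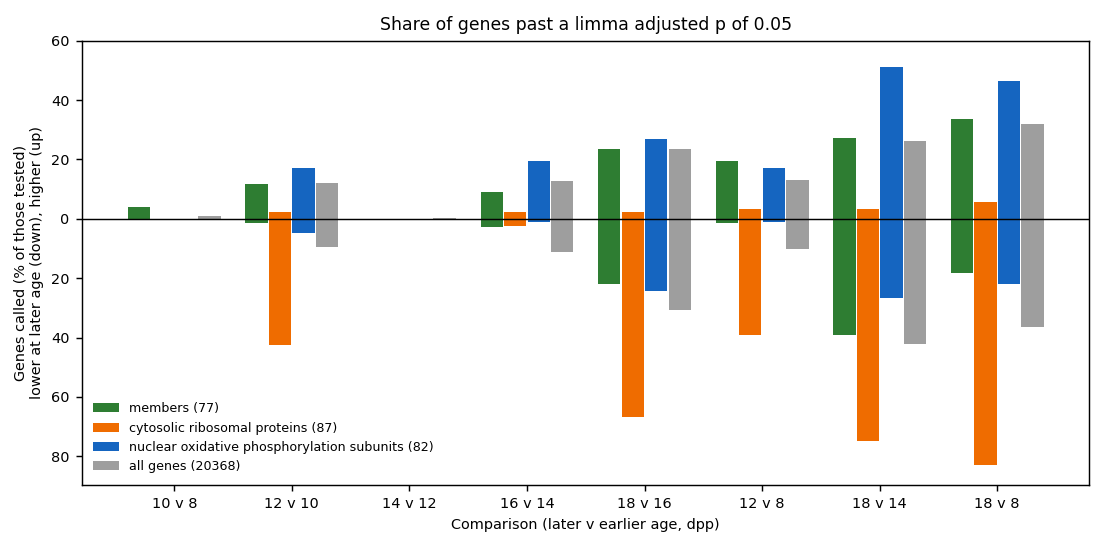
Percent of genes called higher (upward bars) and lower (downward bars) by limma at an adjusted p under 0.05 in 8 comparisons of ages (horizontal axis, later against earlier age in dpp), for 77 mitochondrial ribosomal protein genes, 87 cytosolic ribosomal protein genes, 82 nuclear oxidative phosphorylation genes and all 20368 genes. At 18 against 8 dpp the members had 33.8% higher and 18.2% lower, and the cytosolic genes 5.75% and 82.8%.

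In adult pachytene/diplotene samples most member transcripts remained, in unequal amounts. At least 3 TPM in every adult sample was reached by 75 of 77 members, against 55.7% of 20366 genes in both tables, and the summed level was 4592 ± 142 TPM (n = 4). Adult levels lay above all 18 dpp mice for 20 members, below for 38 and overlapped for 19, where all genes gave 22.3% above and 53.4% below. No test was made across the 2 tables. The median difference, adult minus 18 dpp on the log2(TPM + 1) scale, was -0.39 for members and -0.66 for all genes. By origin, 12 of 31 mitochondria-specific genes lay above and 9 below, and 8 of 45 with a bacterial counterpart above and 28 below.

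The highest differences were those of Mrpl1 (66.4, 65.9, 62.2 and 60.6 TPM, difference 1.05), Mrpl47 (90.8, 94.2, 85.8 and 87.8 TPM, difference 1.04) and Mrpl51 (338, 314, 324 and 316 TPM, difference 0.83). Mrpl51 was the most abundant member in adult cells. Mrpl39 at 127 ± 5.98 TPM and Mrpl24 at 250 ± 14.3 TPM also lay above every juvenile mouse. The lowest differences were those of Mrps24 (5.62, 5.82, 5.23 and 5.24 TPM, difference -2.67), of Mrpl58 (12.4, 6.87, 6.88 and 6.71 TPM, difference -2.49), a ribosome-bound peptidyl-tRNA hydrolase that averaged 50.6 ± 14.0 TPM at 18 dpp, and of Mrpl49 (6.26, 5.72, 6.60 and 5.21 TPM, difference -2.36). Mrps24 and Mrpl49 were called lower at 18 against 16 dpp (-0.37 and -0.27) and Mrpl58 at 18 against 14 dpp (-0.37), but none of these calls held with median-of-ratios factors (limma adjusted p = 0.065, 0.19 and 0.30). Mrps6 stood at 28.9 ± 4.51 TPM and Mrps36 at 7.42 ± 1.72 TPM. Mrpl23 was listed at 0 in 3 adult samples and at 8.26 TPM in the other, in which Mrpl23-ps1 was listed at 0, and the sum of both was 4.62 to 10.8 TPM.

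Which transcript of a gene was used could be tested for 48 members with at least 2 transcripts averaging at least 1 TPM at either stage, setting the 8 mice of the first 2 ages against the 10 mice of the last 2. None of the 48 had a transcript that changed by at least 20 points at a limma adjusted p under 0.05, against 4.61% of 7346 genes. By transcript this was 0 of 211, against 531 of 41604, and 14 of the 211 passed the p alone. Mrpl24-201 came nearest, from 22.8% to 42.7% of the gene's TPM (19.9 points, limma adjusted p = 0.00098), and 1 member was called without 8 dpp mouse 2, 10 dpp mouse 3 or 4, any of 16 dpp mice 2 to 5, or 18 dpp mouse 1. At 10 points 5 members were called (background 12.7%). Mrpl1-203 went from 27.6% to 44.7% (adjusted p = 0.0074) and Mrps21-202 from 0.11% to 16.2% (adjusted p = 0.027). Mrpl38-201 went from 74.5% to 86.9%, and Mrpl15-201, annotated as a target of nonsense-mediated decay, from 21.2% to 10.6%.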

How the data were processed

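Polyadenylated RNA of 28 juvenile mice and 4 adult pools was quantified by the authors with RSEM 1.2.8 on Bowtie 1.0.0 alignments; the strand setting is not given in the sources used here. The gene table was deposited as a score, exp(log2(TPM + 1)) - 1, and was converted back to log2(TPM + 1). The transcript and adult tables were deposited as TPM. The design had assumed TPM in the gene table. No counts were used and 0 per-sample columns were left unused.

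The test between ages was limma (version 3.58.1, under R 4.3.3) on log2(TPM + 1) (a pseudocount of 1) across all 20368 genes and 28 mice, with Benjamini-Hochberg adjustment and a threshold of 0.05. Fold changes on this scale understate those of low genes. The adult table was normalized apart, so no test was run between tables. Index barcodes in the titles are shared by the libraries of 8 and 14, of 10 and 16 and of 12 and 18 dpp, and no pool or run is named. The barcode series restarts at 14 dpp, so 18 against 8 and 14 against 12 dpp cross the restart. The intervals 12 against 8 and 18 against 14 dpp lie within a series. If the restart marks a separate handling, it cannot be told apart from age. Mice are separate animals. At 14 dpp the last 2 mice are numbered 6 and 7, after the titles. Descriptions were computed with Python 3.11.15.

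The members and lists were chosen with earlier results of these data known. Genes named were, by rule, the 6 called members with the largest rise and the 6 with the largest fall from 8 to 18 dpp whose mice did not overlap (only 3 fell so), the top called members of each other comparison, the adult extremes, the 3 smallest F statistics, the Mrps18 paralogs and Mrps36. Mrpl23, its pseudogene and Mrpl33 were added after their values were seen. On simulated data for 18 against 8 dpp (20368 genes), 87.5% of 200 genes changed by 1 on the log2 scale were recovered, with 5.41% false calls, and for transcript usage (41604 transcripts) 90% of 200 changed by 40 points, with 0% false. The simulations changed fewer genes or transcripts than were called in the data, and by more than most called members moved. Their rates therefore do not describe the member calls. Alternatives were other pseudocounts, filters, scalings, variance priors, blocks and samples.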

Additional observations from a re-analysis of the deposited data

Results flagged for a closer look

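Among 72 groups of named members tested for a sample far from the others, 3 had one, where chance gives about 1 in 20 groups. Mrpl2 was 105.11 TPM in 18 dpp mouse 5, against 85.8 to 87.57 TPM in the other 18 dpp mice. Mrpl53 was 38.13 TPM in 10 dpp mouse 1, against 45.71 to 46.19 TPM in the others of that age. Mrpl49 was 53.35 TPM in 12 dpp mouse 5, against 43.85 to 45.96 TPM in the others. The cause of each was not tested.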

How the results depend on the processing

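Counts of called members moved by over 1.5 times under these alternatives, and the cause was not tested. Median-of-ratios factors gave 11 higher and 0 lower for 16 against 14 dpp, 2 lower for 18 against 16 dpp, 40 higher and 5 lower for 18 against 8 dpp, and 38 higher and 6 lower for 18 against 14 dpp. They shifted the median of all genes at 18 against 8 dpp from -0.09 to 0.05, and quantile normalization to -0.26. Without the filter on low genes 3 were higher and 0 lower for 16 against 14 dpp, and 11, 9 and 0 lower for 18 against 16, 18 against 8 and 12 against 8 dpp. Fits of only the ages compared gave 10, 5 and 0 lower for those. Quantile normalization gave 27 lower for 18 against 16 dpp and 0 for 12 against 8 dpp. One prior variance gave 1 lower for 16 against 14 dpp and 0 for 12 against 8 dpp. At 10 points 5 members changed transcript usage. Leaving out 18 dpp mice 4 and 5, chosen after seeing the data, gave 28 lower for 18 against 16 dpp; the motif background of protein-coding genes was also added then. Mrpl49 at 18 against 8 dpp turned from -0.00 to 0.17 with median-of-ratios factors (limma adjusted p = 0.048).

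With 1 mouse left out, higher and lower counts ranged from 1 to 4 and 0 to 0 (10 against 8 dpp), 8 to 11 and 0 to 1 (12 against 10), 0 to 0 in both (14 against 12), 3 to 10 and 0 to 4 (16 against 14), 14 to 19 and 11 to 24 (18 against 16), 25 to 27 and 8 to 14 (18 against 8), 10 to 16 and 0 to 2 (12 against 8) and 19 to 22 and 23 to 32 (18 against 14). Members called at any age ranged from 47 to 53, those detected in adult cells from 75 to 76, and those with a usage change from 0 to 1.

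Mouse numbers did not pair the mice: deviations of 57 same-numbered pairs correlated at a median of 0.01 (3 over 0.1), and of 268 other pairs at 0.00. With the replicate block 1 member was higher at 10 against 8 dpp, 1 lower at 16 against 14 dpp and 0 lower at 12 against 8 dpp. TPM values carry no read depth, so precision rests on the number of mice.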
